A study of Mus musculus with 38 samples.

Results

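The transcripts described here are those found at a higher level in ribosome-bound RNA than in total RNA in every comparison of that kind the series allows, 105 genes of the 15644 that were measured by a probe set with 1 gene symbol. They were chosen by measured values: after a common quantile normalization of the 38 arrays, the mean of a member was at least 0.8 log2 units higher in bound than in total RNA in all 8 pairs of groups, and its 8 bound means were all above log2 of a signal of 50, the limit below which a level is called dim here. Of the 5220 genes bright in all 8 bound groups, the 105 members made up 2.01%. A further 6 probe sets met the rule but carry no gene name, and they are not described.

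The arrays were Affymetrix mouse arrays of RNA from the Translating Ribosome Affinity Purification protocol, after a 2-cycle amplification. Cortex of adult mice gave bound RNA of neurons, mature oligodendrocytes, astrocytes, oligodendrocyte progenitors and oligodendroglia, from lines the labels name Snap25, Cnp1, Aldh1L1, Pdgfra and Olig2, with 3 arrays each, and 5 arrays of cortex total RNA. Each cell type sample was a pool of at least 2 mice. The other dataset came from dissected tumours of 3 mouse glioma models that the labels call Pdgf, Pdgf Cre and Recruited, each with 3 arrays of RNA bound in Olig2 cells and 3 of total RNA. All mice were of a mixed background of C57BL/6J, FVB and Swiss-Webster, and cortex was from wildtype mice without an induced tumour. The age, the sex, the number of mice behind a tumour array and the alleles and agents that set the models apart are not given in the sources used here, so p-values measure the spread between these arrays, which may be technical. The 5 cortical bound groups were each set against cortex total RNA and the 3 tumour bound groups each against total RNA of their own model.

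In this kind of purification, a ribosomal protein with an affinity tag is made in 1 cell type of a mouse, under the control of a gene of that cell type. Antibody against the tag then pulls down those ribosomes with the messenger RNAs they carry, while total RNA of the same tissue holds transcripts of all its cells, on or off ribosomes. A marker of 1 cell type is therefore known to be high in bound RNA of the lines whose tagged cells include that type. A transcript that is higher in bound RNA of neurons, of each kind of glia and of tumour cells alike does not mark any 1 of these cells.

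The genes of the reporter lines served as a check of the labels. Snap25 was at 15.46 ± 0.09 (SD, n = 3) in neuron bound RNA and 15.22 ± 0.07 (n = 5) in cortex total RNA, so for neurons the bound RNA and the tissue hardly differed in it. Aldh1l1 was at 11.45 in astrocytes against 8.26 in cortex, Cnp at 14.23 in mature oligodendrocytes against 9.23, Pdgfra at 10.35 in progenitors against 4.77, and Olig2 at 12.47 in cortical Olig2 cells against 6.18. The lines were not exclusive: the mean of 5 markers of mature oligodendrocytes was 13.70 in their own line, 13.24 in cortical Olig2 cells and 10.77 in progenitors. None of the fixed markers of neurons, glia, microglia, vessels or blood was a member. The rule asks for a higher level in bound RNA of every line, which a marker of 1 cell type can hardly meet, so nothing is read from this. Array quality was not equal: the gap between the 3′ and 5′ probe sets of actin, a sign of RNA degradation or short amplified products, was 6.51 ± 0.43 log2 units in progenitors and 4.53 ± 1.02 in cortex total RNA, against 2.76 to 3.66 in the other bound groups and 2.62 to 3.06 in tumour total RNA. Its part in the results was not tested. Replicate arrays also lay close together for many genes. The SD was under 0.02 in at least 1 bound group for 52 members (49.5%) and for 49.3% of all bright genes. A spread that narrow was found in 32.4% of the members' bound means from the dim limit to 7 but in 4% of those above 9. Over all bright genes these shares were 26.9% and 5.99%.

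The ETS motif (CCGGAAG on either strand) was found in a larger share of member promoters than of bright promoters (36.0% against 23.5%), and 4 of those in which it lay closest before the start of transcription are printed to show its place. Each run is the last 100 bases before the RefSeq start in GRCm38.p6, 5′ to 3′ on the gene's strand, with the motif in capitals. Ubl4a lies at chrX:74368549-74368648 (minus strand), Tefm at chr11:80142154-80142253 (minus strand), Gpn2 at chr4:133584273-133584372 (plus strand) and Cmc1 at chr9:118150197-118150296 (minus strand).
Ubl4a: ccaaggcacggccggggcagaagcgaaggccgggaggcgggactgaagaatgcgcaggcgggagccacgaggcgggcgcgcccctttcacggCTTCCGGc
Tefm: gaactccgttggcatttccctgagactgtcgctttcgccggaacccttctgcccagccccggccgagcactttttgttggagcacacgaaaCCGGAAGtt
Gpn2: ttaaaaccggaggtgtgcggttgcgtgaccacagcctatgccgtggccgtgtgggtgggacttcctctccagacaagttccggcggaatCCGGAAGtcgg
Cmc1: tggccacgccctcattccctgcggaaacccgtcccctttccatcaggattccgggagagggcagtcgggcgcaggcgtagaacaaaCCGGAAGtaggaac
The motif began 8, 9, 11 and 14 bases before the start in Ubl4a, Tefm, Gpn2 and Cmc1. A match is a run of letters and does not show that a factor binds there.

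The values that chose the members are given first, as a description without a test. The median member was higher in bound than in total RNA by 2.50 log2 units in astrocytes, 2.23 in cortical Olig2 cells, 1.85 in mature oligodendrocytes, 1.6 in progenitors and 1.37 in neurons. In the tumours the median was 1.45 in Pdgf, 1.55 in Pdgf Cre and 1.79 in Recruited. Over all 5220 bright genes the same medians lay between 0.07 and 0.22. The lowest of a member's 8 differences had a median of 0.99 and reached at most 1.99, and 51 members had a lowest difference of at least 1. It fell in the neuron pair for 30 members and in the astrocyte pair for 0, while the highest of the 8 fell in the astrocyte pair for 42 members and in the neuron pair for 0. The neuron pair was also the one whose bound and total RNA were least unlike in neuron markers, with a mean of 12.02 over 6 markers in bound RNA and 11.91 in cortex total RNA. The part of this in the members' small neuron difference was not tested.

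**Figure D1:**
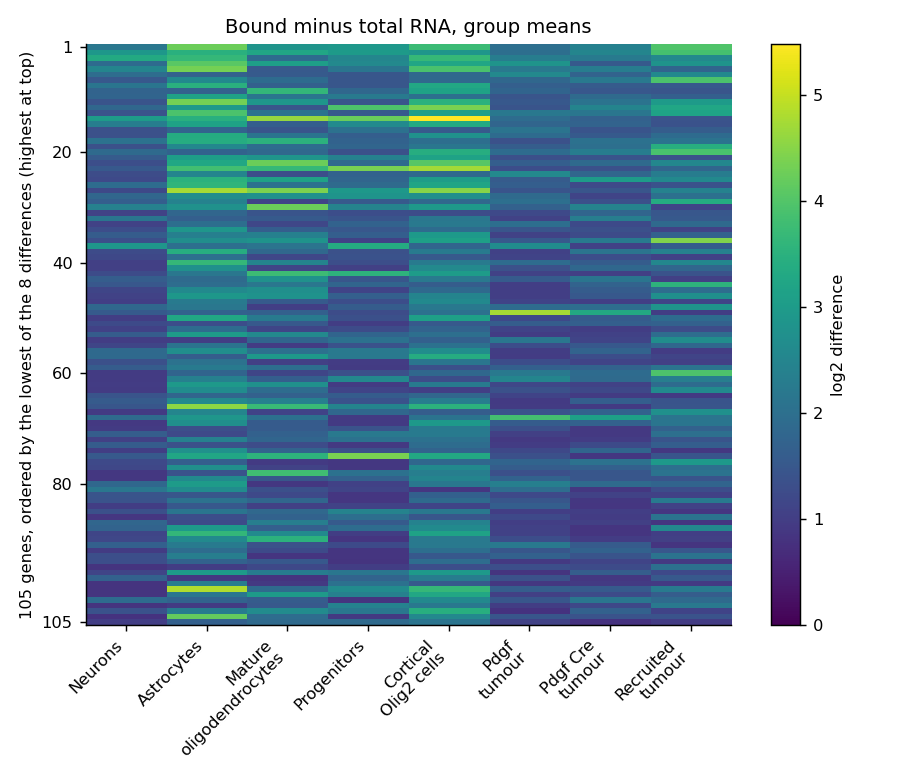
Log2 difference of bound over total RNA (colour) for the 105 members (rows, ordered by the lowest of the 8 differences, highest at the top) in the 8 pairs (columns). The astrocyte and cortical Olig2 columns are the brightest, with medians of 2.50 and 2.23, and the neuron column is among the darkest, with a median of 1.37.

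In 88 members no bound array overlapped a total array in any of the 8 pairs. The rule asks for a difference of means in each pair, and the share of bright genes without overlap in all 8 is not given here, so nothing is read from this count. Per pair, 96 (Recruited) to 105 (astrocytes and mature oligodendrocytes) members did not overlap, beside 31.3% to 45.4% of all bright genes. In 44 members at least 1 of the 4 total means was dim, and in 9 all 4 were. With dim means set to the dim limit, 81 members still had a lowest difference of at least 0.8 and 24 did not. It was under 0.3 in 7 of these: Rpp40 (0.015), Hes6 (0.02), Thoc6 (0.037), Dnph1 (0.093), Mus81 (0.16), 2610035D17Rik (0.16) and Prorp (0.24). In the other 17 it lay between 0.324 and 0.789 (Nme6, Utp23, Mtcp1, C030006K11Rik, Dcps, Mtfr1, 4732491K20Rik, Spr, Zkscan5, Ccdc12, Fbxo4, Cyp3a44, Pphln1, Dcp1b, Kdelr2, Ttc32 and Szrd1), so the unlimited differences given for all 24 are set against levels that are only bounds. The same holds for other members in any pair whose total mean was dim, though their lowest difference stayed at 0.8 or more. At the limit it was 0.98 for Nop16, Tradd and Slc35b2 and 1.06 for Mettl6. Levels of the members in bound RNA were lower than those of bright genes at large in some groups and not in others: the median member stood at 8.01 in neurons, 9.23 in astrocytes and 9.56 in Pdgf tumour cells, while the median of all bright genes lay between 9.32 and 9.43 in every bound group. In cortex total RNA the median member was at 6.60, and 36 members were dim there. In bulk RNA of a tissue, fewer cells of a type and less RNA per cell cannot be told apart.

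Near the limit of the rule the set has no gap. Just inside were Szrd1 and Pold2 (lowest difference 0.81 each, in neurons and in Pdgf tumours) and the clone 2610001J05Rik (0.81), and just outside were Trp53rka (0.80, unrounded just under the limit), Pias3 (0.80) and Acad8 (0.79). The set also depended on the scale. On the deposited values without a common normalization 65 genes met the rule, of which 45 are members, and with each array set to the same median 489 did, all 105 members among them.

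The products of many members belong to machineries that every cell runs, and 30 of the 105 were given no role. The roles below were assigned after the members were known, so their sizes are no test. Other bright genes were not given roles, so no share of bright genes stands beside these sizes. In the account of roles, each pair of values is a member's lowest and median difference of bound over total RNA, in log2 units.

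Ribosome assembly and the processing of transfer or other small RNA held 8 members. Utp23, a protein of early small-subunit assembly in the nucleolus, had a lowest difference of 1.99 (median 2.95). Its log2 signal ran from 6.24 to 7.22 (median 6.45) over the 24 bound arrays and from 3.02 to 4.34 (median 3.38) over the 14 total arrays. All 4 of its total means were dim, so with dim means at the limit the lowest difference was 0.60, and in 5 bound groups its replicate arrays had an SD under 0.02. Nop16, a nucleolar protein of large-subunit assembly, ran from 6.52 to 8.48 (median 7.14) in bound and from 4.96 to 6.57 (median 5.19) in total arrays. Its lowest difference was 1.48, or 0.98 at the dim limit. Mettl6, which methylates transfer RNA, had 1.45 (1.06 at the dim limit) and 1.94. The group was completed by Rpp40 (1.03 and 1.75, but a lowest of 0.015 at the dim limit, with all 4 total means dim), a subunit of ribonuclease P, by Rpf1, Emg1 and Nip7, which act in ribosome assembly, and by Isg20l2, an exonuclease of ribosomal RNA maturation (0.89 and 2.39).

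DNA replication, repair and the upkeep of nucleotide pools held 10 members. Nme6, of the nucleoside diphosphate kinase family, had the highest lowest difference of the set, 1.99, from 6.08 to 8.36 (median 7.53) in bound arrays and from 3.48 to 6.32 (median 4.03) in total arrays. Both cortex and Recruited total RNA were dim for it, and at the limit the lowest difference was 0.45. Mus81, an endonuclease that cuts branched DNA, ran from 5.68 to 7.89 in bound and from 2.86 to 5.43 in total arrays, below the limit in all of the latter, and its lowest difference of 1.93 was 0.16 at the limit. Dguok, the mitochondrial deoxyguanosine kinase, rested on no dim group: it ran from 7.36 to 9.45 (median 7.90) in bound and from 5.44 to 6.66 (median 6.09) in total arrays, and its lowest difference was 1.36. The replication proteins Pold2 (a DNA polymerase delta subunit), Rfc4 (a clamp loader subunit), Prim2 (a primase subunit) and Rad1 (a checkpoint clamp subunit) had lowest differences of 0.81, 0.91, 0.82 and 1.10. Nudt1, which clears oxidized nucleotides, had 1.21, Poll, a repair polymerase, 0.98, and Dnph1, a nucleotide hydrolase, 1.41, which was 0.093 at the dim limit.

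The endoplasmic reticulum and Golgi apparatus held 13 members. Ubl4a, a ubiquitin-like protein that passes tail-anchored membrane proteins on toward the endoplasmic reticulum, ran from 7.81 to 10.74 (median 9.62) in bound and from 6.47 to 8.99 (median 7.98) in total arrays. Its arrays did not overlap in any of the 8 pairs and none of its total means was dim. The difference was 1.47 in progenitors, its lowest, and 3.47 in astrocytes, its highest. Get3, the ATPase of the same insertion route, had a lowest difference of 0.90 and a median of 1.32. Glycan synthesis gave Mpdu1 (1.38 and 2.06), Alg3 (1.09 and 1.6) and Ostc (0.84 and 1.64), with Pigs of the glycolipid anchor machinery (1.03 and 1.74) and Nans, which makes sialic acid (0.83 and 1.45). Slc35b2, a Golgi carrier of sulfate donor, had 1.29 (0.98 at the dim limit) and 2.74. Ormdl1 and Ormdl2, which restrain sphingolipid synthesis, had lowest differences of 0.86 and 1.18, and Kdelr2, the receptor that returns resident proteins to the endoplasmic reticulum, had 0.83. Vkorc1, the vitamin K epoxide reductase, and Prdx4, the peroxiredoxin of the endoplasmic reticulum, had 0.82 and 0.94.

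The mitochondrial group held 13 members. Gatc, a subunit of the enzyme that makes mitochondrial glutaminyl-tRNA, had a lowest difference of 1.28, from 7.72 to 9.26 (median 8.53) in bound arrays and from 6.03 to 7.21 (median 6.63) in total arrays, the highest lowest difference of this group. Tefm, the elongation factor of mitochondrial transcription, had 1.09, and Prorp, the nuclease of mitochondrial ribonuclease P, 1.06 with all 4 total means dim. The ribosomal proteins Mrpl50, Mrpl36, Mrps18c and Mrpl58 had lowest differences of 1.08, 0.89, 0.84 and 0.83. The import proteins Timm17b and Timm10b had 0.93 and 0.88, Ndufb11 of respiratory complex I 0.97, Echs1 of fatty acid oxidation 0.93, Cmc1, a factor of cytochrome oxidase assembly, 0.84 and Mtfr1 1.04. In 11 of the 13 no total mean was dim.

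Messenger RNA synthesis, splicing, export and decay held 14 members. The RNA polymerase II subunits Polr2f and Polr2d had lowest differences of 0.99 and 0.88. Polr2f was one of the most abundant signals of the set, from 11.78 to 13.63 (median 12.54) in bound arrays and from 10.49 to 12.74 (median 11.88) in total arrays. Over all tissues its bound and total arrays overlapped, but within each of the 8 pairs they did not. Snrpd3, a core protein of the spliceosomal particles, had 1.02 and a median of 1.21, and Yju2 and Ccdc12, both splicing factors, had 0.91 and 0.92. Dcps, which hydrolyses the cap left by decay, had 1.33, and Dcp1b, a cofactor of decapping, 0.86. Thoc6 of the export complex had 0.98 (0.037 at the dim limit), and the Mediator subunit Med21 0.96. The chromatin reader Ing4 had 1.07. Hes6, a transcription factor that antagonizes Hes1, had 1.54, but only 0.02 with dim means at the limit, since its mature oligodendrocyte bound mean was 5.66.

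Smaller groups completed the set. Membrane traffic gave Stx8, a late endosome syntaxin (1.47 and 1.89), Vps36, an ESCRT subunit (1.13 and 2.36), Bloc1s5, a subunit of a complex of lysosome-related organelles (1.05 and 1.24), and Tbc1d7, a subunit of the tuberous sclerosis complex (1.00 and 1.54). Signalling gave Tradd, an adaptor of the tumour necrosis factor receptor (1.45 and 1.76, but a lowest of 0.98 at the dim limit), Itgb1bp1, an integrin-binding adaptor (1.37 and 1.92), and the phosphatases Dusp15 and Dusp19 (lowest 1.35 and 0.99). Protein turnover gave the proteasome subunit Psmd8 (0.87 and 1.21), the ubiquitin ligase subunit Fbxo4 (0.89 and 1.54) and Cdc26 of the anaphase-promoting complex (1.04 and 1.58). Of 6 metabolic enzymes outside mitochondria, Gstz1 had the highest lowest difference (1.05) and Msrb1, a methionine sulfoxide reductase, the lowest (0.85). Cyp3a44 belongs to a multigene family of near-identical cytochromes, and which copies its probes read was not tested. The other 30 members were given no role, among them Hint3 (1.42 and 2.49), Ruvbl2, an ATPase of several chromatin and assembly complexes (1.34 and 1.99), and Mtcp1 (1.56 and 2.82, with all 4 total means dim). Znrd1as, named for its place opposite Znrd1, had 1.37 and 1.58 and did not overlap in any pair, and whether its probes also read RNA of the partner was not tested. Of all members, 101 are listed as protein-coding, 3 clones as long noncoding RNAs and Gm6257 as a pseudogene.

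**Figure D2:**
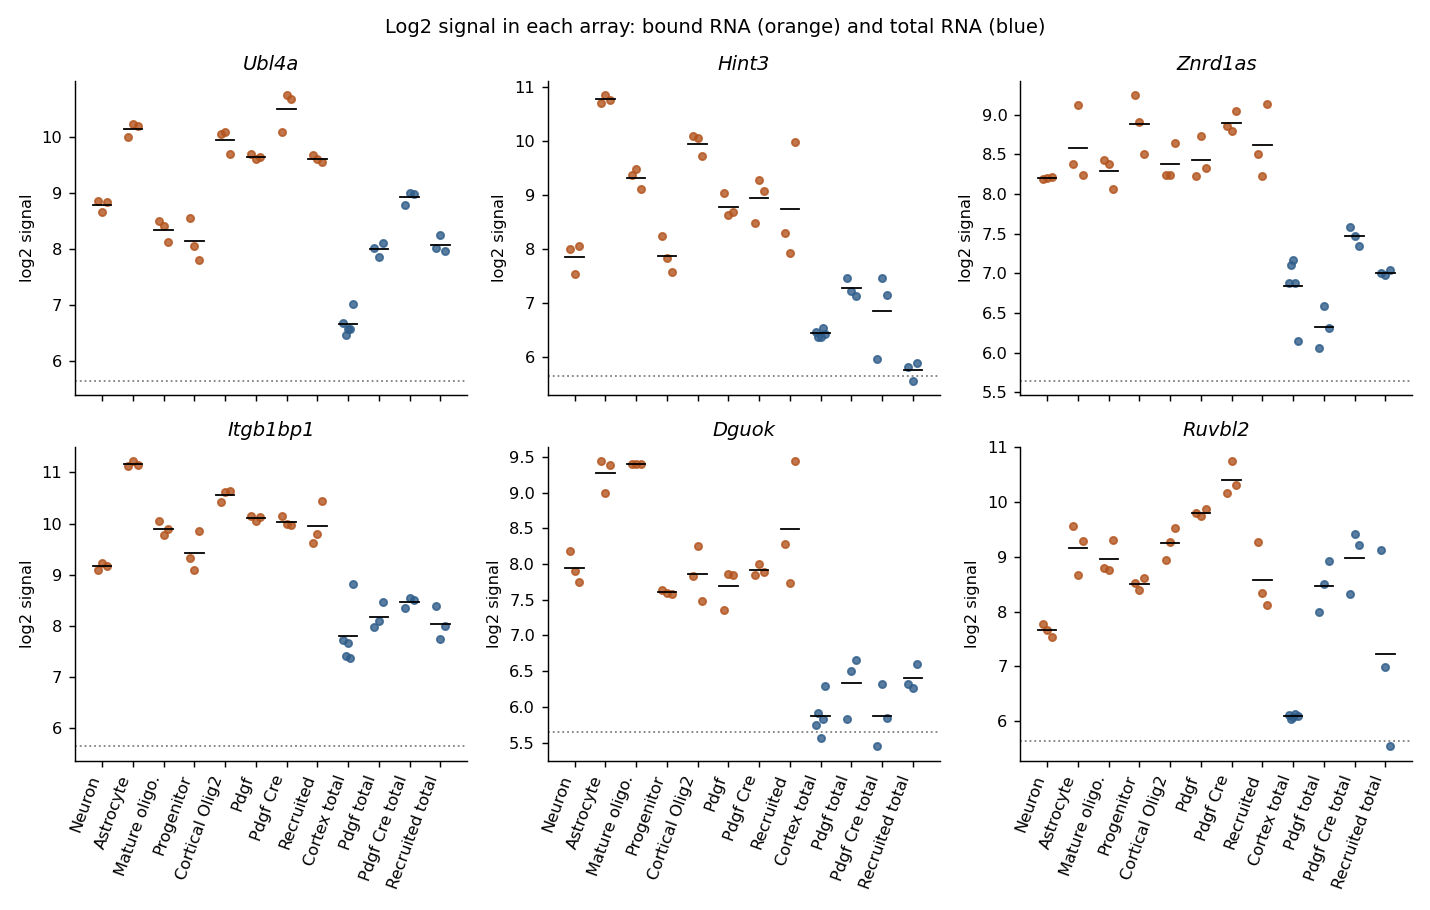
Log2 signal in each array (points; bound RNA orange, total RNA blue; black bars are group means; the dotted line is the dim limit, log2 of 50) for the 6 members with the highest lowest difference among those with no dim total mean. In each of the 8 pairs the bound mean lies at least 1.34 above the total mean it was set against.

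The members were also counted in 23 gene classes defined by name, beside the 2.01% that members make of all bright genes. At that share most classes would hold 0 or 1 member, so a count of 0 says nothing particular about a class. None of the 18 bright cytosolic ribosomal protein genes was a member, and the median over these genes of the median difference was 0.27, close to the 0.17 of all bright genes. Nor was any of the 42 bright initiation and elongation factors, 41 chaperones, 95 zinc finger genes, 38 Rab genes or 22 coat and Golgi traffic genes. Of 59 bright mitochondrial ribosomal protein genes 4 were members (6.78%), and the class had a median difference of 0.81. RNA polymerase II and general factors gave 2 of 40 (Polr2d and Polr2f), the metallothionein, glutathione and peroxiredoxin genes 2 of 26 (Gstz1 and Prdx4), and the splicing genes 1 of 35 (Snrpd3). The proteasome gave 1 of 32 (Psmd8), secretory pathway entry 1 of 28 (Ostc), the respiratory chain 1 of 71 (Ndufb11), solute carriers 1 of 74 (Slc35b2), Tmem genes 1 of 77 (Tmem219) and ubiquitin enzymes 1 of 116 (Fbxo4). These counts are a description of membership, which is itself defined by the values.

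Between the 5 cortical populations, which the rule compared with cortex total RNA but not with each other, the members differed about as much as other bright genes. In limma's model 85 of the 105 members (81%) changed by at least 2-fold between the highest and lowest population at an adjusted p under 0.05, beside 88.3% of all genes tested and 83.2% of bright genes. The median range was 1.58 log2 units in members and 1.67 in bright genes. A member was highest in astrocytes in 51 cases (48.6%, beside 23.8% of bright genes), in cortical Olig2 cells in 33 (31.4%, beside 12%), in mature oligodendrocytes in 11, in progenitors in 9 and in neurons in 1 (0.952%, beside 26.4%), and lowest in neurons in 58 (55.2%, beside 22.9%). The order depended on the scale, and the shares of bright genes moved with it. On the deposited values 43 were highest in astrocytes (41%, beside 16.3% of bright genes) and 20 in neurons (19%, beside 52%). On the same values 60 were lowest in progenitors (57.1%, beside 27.4%) and 16 in neurons (15.2%, beside 9.44%). With spike-in scaling 53 were highest in mature oligodendrocytes (50.5%, beside 40%) and 21 in astrocytes (20%, beside 9.79%). Ttc32, Ormdl2, Szrd1 and Slc35b2 had the widest ranges, of 4.01, 3.57, 3.39 and 3.18.

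Most members lay higher in astrocytes than in neurons. Of the members 50 (47.6%) were higher in astrocytes and 0 lower in limma's test, beside 27.5% of all genes tested higher and 29.3% lower. Of bright genes 20.2% were higher and 22.8% lower. The median difference was 0.97 log2 units in members and 0.00 over all genes tested, and 94 members lay above the latter. The rule bounds each population from below against the same cortex arrays, so these arrays also took part in choosing the members. The split depended on the scale: it was 29 higher and 9 lower on the deposited values, 23 and 10 with spike-in scaling and 48 and 2 with median scaling. On these scales the median of all genes tested was -0.65, -0.79 and -0.13. Relative to it the median member was higher in astrocytes by 0.95 on each. These scales differ only by a constant per array, which cancels in that value, so the 0.95 is a single result.

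Ttc32, a small protein of tetratricopeptide repeats, was at 10.19, 10.31 and 10.27 in the astrocyte arrays and 6.24, 6.30 and 6.21 in the neuron arrays. The 2 groups lay far apart, with a difference of 4.01 ± 0.28 (SE; 16.1-fold, limma adjusted p = 8.26e-14). Ormdl2 was at 10.02, 9.91 and 10.17 against 6.20, 6.66 and 6.51, higher by 3.57 ± 0.35 (11.9-fold, limma adjusted p = 2.29e-10). Its paralog Ormdl1 was not among the members higher in astrocytes. Szrd1 was at 9.51, 9.72 and 9.54 against 6.19, 6.20 and 6.20, higher by 3.39 ± 0.21 (10.5-fold, limma adjusted p = 9.01e-15). Its neuron arrays were nearly identical, and since its cortex total mean (5.39) was dim, its neuron level is known only to be at least 1.47-fold higher than that of cortex total RNA. Of the mitochondrial members Echs1, Mtfr1, Mrpl50, Mrpl36, Mrps18c, Timm17b, Timm10b and Gatc were all higher in astrocytes, from 1.02 for Mrps18c to 3.10 for Echs1. Of the endoplasmic reticulum and Golgi members Slc35b2 (2.28), Kdelr2 (1.86), Pigs (1.46), Ubl4a (1.35) and Vkorc1 (1.33) were higher as well.

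**Figure D3:**
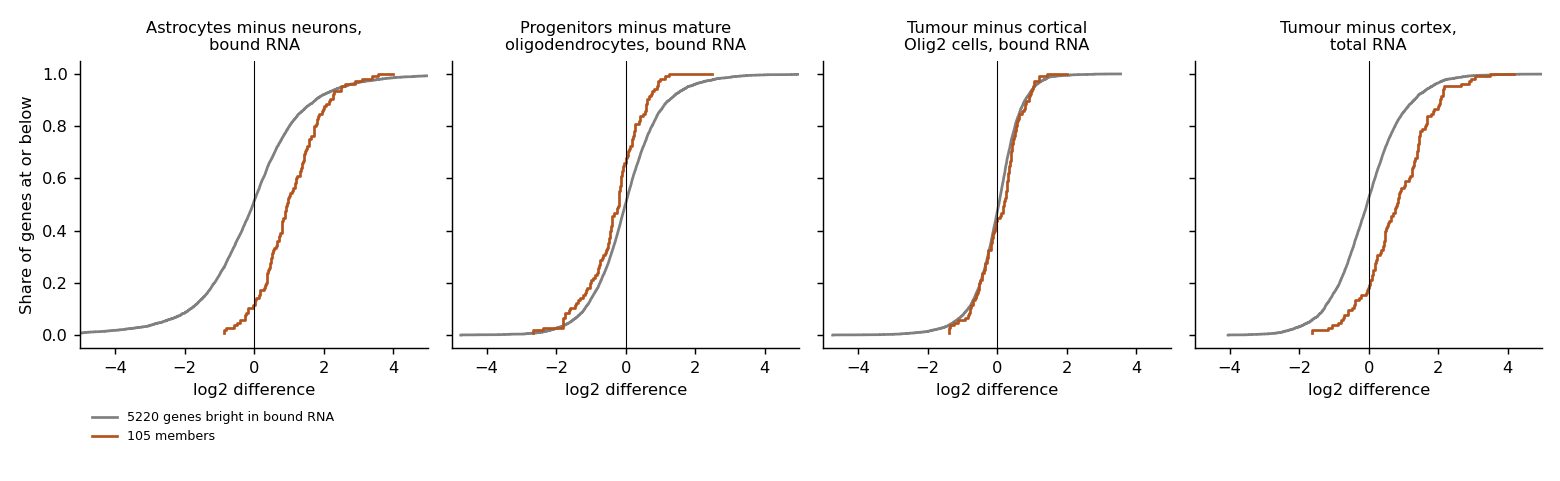
Share of genes at or below each log2 difference, for the 105 members (orange) and the 5220 genes bright in bound RNA (grey), in 4 comparisons. Members lie to the right of bright genes for astrocytes minus neurons (median 0.97) and for total RNA of tumour minus cortex (median 0.84, which shares arrays with the rule), and close to them in the other panels (medians -0.20 and 0.20).

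Between the ends of the oligodendrocyte lineage, more members were lower than higher in progenitors. Of the 105, 21 (20%) were lower in progenitors than in mature oligodendrocytes and 3 higher in limma's test, beside 19.9% lower and 18.8% higher over all genes tested and 13.6% and 13.9% of bright genes. The share lower was thus near that of all genes tested, and the share higher (2.86%) below it. The median member differed by -0.20. On the deposited values 2 members were higher and 34 lower, with spike-in scaling 1 and 40, and with median scaling 1 and 52. The median of all genes tested was -0.38, -0.49 and -0.65 on these scales, against -0.02 after quantile normalization. Progenitor arrays are those with the widest actin 3′ to 5′ gap (6.51, against 3.64 in mature oligodendrocytes), and its part in these counts was not tested.

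Msrb1 was at 8.64, 8.17 and 8.28 in progenitors and 11.24, 10.70 and 11.18 in mature oligodendrocytes. The arrays did not overlap, and the difference was -2.67 ± 0.24 (6.38-fold lower in progenitors, limma adjusted p = 7.04e-11). Dcps was at 6.76, 6.91 and 6.96 against 9.32, 9.13 and 9.30, a difference of -2.38 ± 0.38 (5.19-fold, limma adjusted p = 3.85e-06). Dguok was at 7.63, 7.60 and 7.58 against 9.41, 9.40 and 9.40, a difference of -1.80 ± 0.29 (3.48-fold, limma adjusted p = 3.2e-06). Tradd, Atraid and Rad1 had falls of nearly the same size. The rises were fewer and less steady. Prorp was at 7.66, 7.38 and 7.31 in progenitors against 5.99, 5.98 and 6.61, higher by 1.26 ± 0.29 (2.39-fold, limma adjusted p = 0.000462). Nit2, an omega-amidase, was at 9.59, 9.54 and 10.42 against 8.82, 8.48 and 8.89, higher by 1.12 ± 0.28 (limma adjusted p = 0.000947). Without the third progenitor array it was higher by 0.84, without the second mature oligodendrocyte array by 0.99, and on the deposited values by 0.60, each under the 2-fold limit. Prorp stayed under it with spike-in scaling (0.99) and with median scaling (0.83). The third member higher in progenitors was the clone 2610035D17Rik.

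Olig2 cells of the tumours were next set against cortical Olig2 cells, bound RNA on both sides and the same marker gene. Few members differed: 8 (7.62%) were higher in tumours, taken as the mean of the 3 models, and 5 (4.76%) lower, beside 13.5% and 14.4% of all genes tested and 6.17% and 7.45% of bright genes. The median member differed by 0.20. With median scaling, which moved the median of all genes tested to 0.19, the split was 15 higher and 4 lower. Tumours and cortex are the labels' separate datasets, so dataset and tissue cannot be told apart here.

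Fbxo4 was at 6.90, 7.25 and 6.49 in cortical Olig2 cells, at 8.86, 8.63 and 8.87 in Pdgf, at 8.27, 8.26 and 8.26 in Pdgf Cre and at 7.41, 8.10 and 8.11 in Recruited. All 9 tumour arrays lay above the 3 cortical ones, and the difference was 1.43 ± 0.17 (2.69-fold, limma adjusted p = 1.88e-08). Kdelr2 was at 7.99, 7.85 and 7.78 in cortical Olig2 cells and between 8.15 and 9.72 in tumour arrays, higher by 1.22 ± 0.21 (2.32-fold, limma adjusted p = 1.66e-05). Cyp3a44 was higher by 2.00 ± 0.33 and belongs to the multigene family named above. It was at 6.68, 5.90 and 5.43 in cortical Olig2 cells and at 7.80, 8.53 and 7.02 in Pdgf. The other models were unequal, at 6.73, 7.07 and 6.75 in Pdgf Cre and at 9.65, 9.26 and 9.23 in Recruited. Of the other members higher in the mean of the 3 models, Ostc and Prdx4 act in the endoplasmic reticulum like Kdelr2. Rfc4 acts in replication, Nup43 in the nuclear pore and Nop16 in the nucleolus. Their differences ran from 1.00 for Nop16 to 1.20 for Rfc4. In Recruited, only Nop16 of these had no overlap with the cortical arrays. Nup43 was there at 7.49, 6.25 and 6.53, against 6.79, 6.81 and 6.80 in cortical Olig2 cells. Rfc4 was at 10.35, 8.26 and 8.57 in Recruited, against 8.90, 8.86 and 8.99. In the other direction, Tradd was at 8.33, 8.30 and 8.28 in cortical Olig2 cells and between 6.21 and 7.91 in tumour arrays, a difference of -1.38 ± 0.14 (2.6-fold lower, limma adjusted p = 1.46e-09). Dcp1b (-1.34 ± 0.19) and Rpp40 (-1.23 ± 0.16) were lower too, and the remaining members that were lower are Hint3 and the clone C030006K11Rik.

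Between the 3 models in bound RNA, 26 members (24.8%) differed, beside 43.2% of all genes tested and 30.2% of bright genes, with a median range of 0.74 in both members and bright genes. Pold2 was at 10.33, 10.05 and 10.16 in Pdgf, at 10.81, 11.41 and 11.01 in Pdgf Cre and at 8.98, 9.04 and 9.02 in Recruited, a range of 2.06 without overlap between models (limma adjusted p = 3.53e-08). Rfc4 followed the same order of means with a range of 2.11, but 1 Recruited array (10.35) lay inside the Pdgf arrays. Frg1, a protein of RNA processing, was highest in Pdgf Cre (10.57, 9.46 and 10.17) with a range of 2.14, and Cyp3a44 highest in Recruited (9.65, 9.26 and 9.23) with a range of 2.53. Over all members, 52 were highest in Pdgf Cre (49.5%, beside 37.7% of bright genes), 36 in Pdgf (34.3%, beside 28.6%) and 17 in Recruited (16.2%, beside 33.8%). On the deposited values these counts were 27 (25.7%, beside 17.6% of bright genes), 44 (41.9%, beside 34.6%) and 34 (32.4%, beside 47.8%).

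In total RNA, 47 members (44.8%) were higher in tumour than in cortex and 3 (2.86%) lower, beside 22.7% and 24.6% of all genes tested and 14.7% and 16.1% of bright genes. Cortex total RNA stands in 5 of the 8 pairs of the rule, so a member had to be low there, and nothing is read from these counts. With median scaling they were 27 and 6. Microglia markers, all 6 measured, had a mean level of 6.99 in cortex and of 10.02 to 11.37 in tumour total RNA, and their part was not tested. As a description, Slc35b2 was between 5.06 and 5.11 in the 5 cortex arrays and between 7.69 and 9.35 in the 9 tumour arrays, and with the dim cortex mean at the limit it was at least 7.65-fold higher. Isg20l2 was between 5.96 and 6.57 in cortex and between 8.28 and 9.97 in tumours (8.26-fold). Dnph1 was between 2.65 and 2.93 in cortex and between 4.67 and 7.71 in tumours, which gives at least 2.41-fold. In the other direction, Stx8 was between 6.80 and 7.59 in cortex and between 4.78 and 7.04 in tumours (-1.06), but without the second or the fifth cortex array the difference was -0.97 or -0.99, under the 2-fold limit, and on the deposited values it was -0.46. Spr, which makes the cofactor tetrahydrobiopterin, and Zkscan5, a zinc finger gene, had dim means on both sides, so no fold is given.

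The genes outside the set whose 12 group means ran most like the median member were Tpd52l2 (Pearson r = 0.96 over 12 groups), Taf12, Sri and Xrcc4 (0.95 each). For the members themselves r ran from 0.43 to 0.97, with a median of 0.85. The 12 points share the cortex arrays and the bound against total contrast by which the members were chosen, so the likeness is a description.

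What the rule did not use was the structure of the genes. Members were short genes: their span from start to end in RefSeq (GRCm38.p6) had a median of 11383 bases, against 21168 for bright genes, 23848 for all genes tested and 76437 for the 202 genes that met the mirrored rule, depleted by as much from bound RNA in all 8 pairs. Of members 47 (44.8%) spanned under 10 kb, beside 26.9% of bright and 8.91% of depleted genes, and 11 (10.5%) over 50 kb, beside 22.6% and 59.9%. By span class, members were 2.37% of bright genes up to 5 kb, 4.16% from 5 to 10 kb, 2.88% from 10 to 20 kb, 0.985% from 20 to 50 kb, 1.21% from 50 to 100 kb and 0.58% beyond. The share was therefore highest from 5 to 10 kb, not in the shortest genes. Long members exist, among them Stx8 with 240738 bases and Prim2 with 216001.

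**Figure D4:**
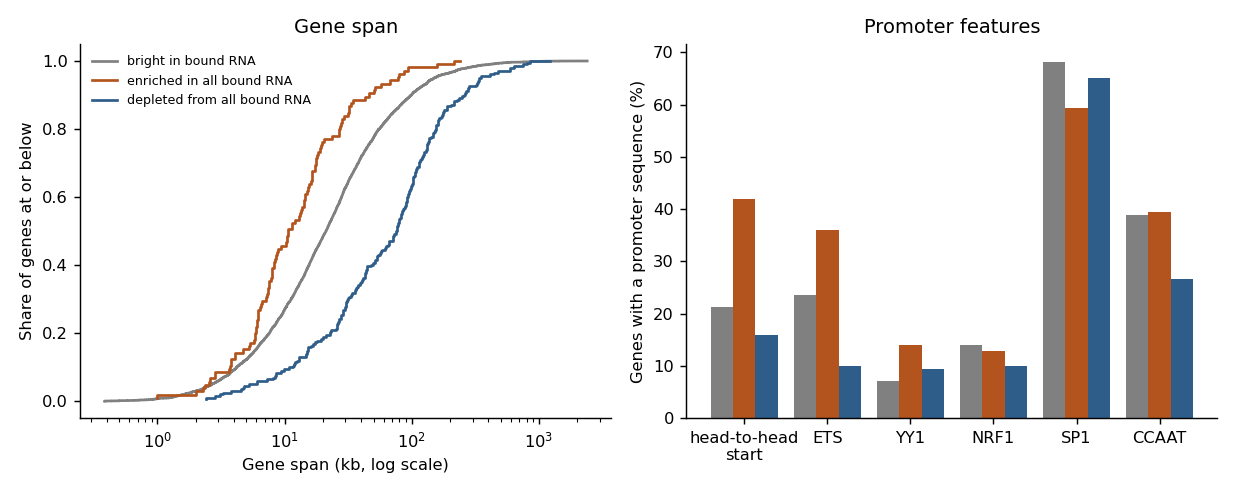
Left, share of genes at or below each gene span (kb, log scale); right, percent of genes with a RefSeq promoter sequence that hold each feature, for members (orange), bright genes (grey) and genes depleted from all bound RNA (blue). Members have the shortest spans (median 11383 bases against 21168 and 76437) and the highest shares with a head-to-head start (41.9%) and an ETS motif (36.0%).

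Promoter sequences of 300 bases, from 250 before to 50 after the start, were available for 86 members, 4335 bright genes and 169 depleted genes. The motifs were searched on both strands and the features were chosen after the members were seen, so they carry no test. A second gene starting within 1000 bases on the opposite strand, a head-to-head arrangement, was found for 36 members (41.9%), beside 21.3% of bright, 18.2% of tested and 16.0% of depleted genes. The starts lay a median of 77 bases apart. The ETS motif CCGGAAG was in 31 member promoters (36.0%), beside 23.5%, 18.3% and 10.1%. The YY1 motif AANATGGCG was in 12 (14.0%), beside 7.11%, 5.39% and 9.47%. Members did not stand out in the NRF1 motif (12.8%, against 14% of bright genes), in CCAAT (39.5% against 38.9%) or in the SP1 motif GGGCGG (59.3% against 68.2%). Nor did they in GC content (median 60.2% against 61.3%) or the ratio of observed to expected CpG (0.81 against 0.82). A TATAAA box 20 to 40 bases before the start was in 1 member promoter, and a start at C followed by at least 4 pyrimidines, as in genes of the translation machinery, in 2 (2.33%, against 2.26% of bright genes).

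Of the 36 partners across a head-to-head start 26 were tested and 17 were bright. None of the 17 was a member, which is near the 2.01% of all bright genes that are. The lowest difference was above 0, so that the partner was higher in bound RNA in all 8 pairs, for 5 of the 17 (29.4%, beside 17.5% of bright genes), namely Triap1, Znrd1, Rpusd4, Brix1 and Phb2. The median over the 17 was -0.35, where that of all bright genes was -0.84. Itgb1bp1 and Cpsf3, whose starts lie 13 bases apart, had lowest differences of 1.37 and -0.35. Mettl6 and Eaf1, 39 bases apart, had 1.45 and -0.39, Eaf1 not being bright in every bound group. The nearest partner to the limit was Triap1, 70 bases from Gatc, with 0.68 against the 1.28 of Gatc.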

How the data were processed

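The values are log2 signals of 16395 probe sets on 38 arrays, made by the authors with GCRMA per the submitters' processing notes (no version given). Each of the 12 groups shared its own minimum value (2.02 to 2.12), and the deposited log2 medians were 4.39 to 4.91 in bound RNA, 5.04 in cortex total RNA and 5.66 to 6.00 in tumour total RNA, so all values were quantile normalized over the 38 arrays before use. The number of arrays limits the precision.

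Genes above 5.64 in at least 3 arrays were tested (9802). Differences came from 1 linear model of the 12 groups (limma 3.58.1, R 4.3.3, 26 residual degrees of freedom), adjusted by Benjamini-Hochberg over all genes tested in each of 6 comparisons. A call required at least a 2-fold change besides an adjusted p below 0.05. The model was tested on simulated data. Same-numbered bound and total arrays of each tumour model deviated together (correlations over genes of in Recruited 0.466, 0.266 and 0.488, in Pdgf Cre 0.621, 0.428 and 0.555, in Pdgf 0.626, 0.618 and 0.473), so the numbers pair them.

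Members and gene classes were chosen with earlier results of these data known. Roles, motifs, head-to-head starts, gene span and the count of narrow replicate spreads were chosen after the members were seen, and the histone name pattern was corrected after it had taken H2-Ke6, a gene of the MHC region. Named genes were the 12 members with the highest lowest difference, those next to the limit, in each comparison the 3 called members with the largest change each way (for several groups, the 4 with the widest range), and up to 4 members of each class. Other members are named with their role, after their values were seen. Rpl10a, the tagged protein of this method, was not analysed here, and neither were protein features. Promoters and spans are RefSeq's (GRCm38.p6). Alternatives were 3 other scalings, other limits, no filter, an intensity trend, the replicate block and leaving out each array.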

Additional observations from a re-analysis of the deposited data

Results flagged for a closer look

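In cortex total RNA, the group with 5 arrays, 33 named genes were checked for an array far from the other 4, and 7 were found. The gap between that array and its nearest neighbour was above 0.71 of the whole range, which chance gives in about 1 of 20 groups. Spr was at 6.27 in array 5 and between 4.75 and 4.99 in the others, and Dnph1 was at 2.93 in array 5 against 2.65 to 2.67. Mtcp1 was at 4.08 in array 5 against 4.23 to 4.28. In array 4, Ttc32 was at 5.15 against 5.47 to 5.54 and Kdelr2 at 5.26 against 4.84 to 4.86. In array 1, Rpp40 was at 5.24 against 4.91 to 4.96 and Isg20l2 at 6.57 against 5.96 to 6.06. All but Isg20l2 and Spr in array 5 are levels below the dim limit.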

How the results depend on the processing

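The number of genes that met the rule, 105, was 65 on the deposited values (45 of them members), 51 with spike-in scaling (35 members), 489 with median scaling (all 105), 287 with a minimum difference of 0.5, 51 with 1.0 and 187 without a minimum bound level. Leaving out each array gave 99 to 115, with at least 94 members among them. Of members called, 24 between progenitors and mature oligodendrocytes became 41 with spike-in and 53 with median scaling. The 50 between astrocytes and neurons became 33 with spike-in scaling, and the 50 between tumour and cortex total RNA became 33 with median scaling. Other settings moved no total of members called by over 1.5 times, but counts in 1 direction moved further: on the deposited values members lower in progenitors went from 21 to 34 and members higher in astrocytes from 50 to 29, and members higher in tumour than in cortical Olig2 cells went from 8 to 15 with median scaling. Leaving out each array gave 83 to 87 members for the 5 populations, 22 to 26 for progenitors, 50 to 54 for astrocytes, 11 to 14 for tumour against cortical Olig2 cells, 47 to 52 for total RNA and 25 to 32 for the models. With the replicate block (correlation 0.273) the counts were 86, 24, 50, 13, 50 and 26 in the same order, against 85, 24, 50, 13, 50 and 26 without it. Of 880 values of 20 named genes under these settings, 866 kept their direction and side of the threshold, 14 fell below it (Nit2, Prorp, Spr, Zkscan5 and Stx8) and 0 reversed. Because GCRMA left each group with its own minimum, the scale between groups remains unsettled, and signals near the dim limit give only bounds.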
